A study of Komagataella phaffii with 13 samples.

Results

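Genes whose transcript level relative to its library hardly moved across a whole fed-batch fermentation are described here. The organism was the methylotrophic yeast *Pichia pastoris* (*Komagataella phaffii*). In total, 233 of the 5040 annotated genes were taken as steady. The rule required an identifier that starts with PAS_ and a mean of at least 50 FPKM (fragments scaled to gene length and library size) over the 13 libraries. The highest and the lowest log2(FPKM + 1) of the 13 libraries had to lie within 0.5 of each other, a 1.41-fold span. The 128 genes of the study's supplementary lists of carbon metabolism, promoter regulation, protein quality control and autophagy were left out. The members were thus chosen by the measured FPKM of these same libraries, and their levels and the drift that remains are given as a description, with no test. FPKM is relative to the library, so a change in the total transcript of a cell would not show. Under 3 other scalings, described further on, membership changed: 54 members met the rule under all 4 scalings and 30 failed it under all 3 others. Leaving out GM_2, the library whose absence changed the number most, would give 362 genes, and a range over fewer libraries can only stay or narrow.

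The strain was *P. pastoris* GS115 (Mut+) that secretes an *Aspergillus niger* PhyA phytase from the *AOX1* promoter, and every library carries this construct. Libraries were named for phase and hour: B_10 was the yeast cell culture grown on glycerol for 10 h, G_3 was taken 3 h into feeding with glycerol, GM_2 was taken 2 h into feeding with glycerol and methanol together, and M_12 to M_120 were taken every 12 h during methanol induction. The first 3 phases have 1 library each and methanol induction has 10, which are serial samples and not replicates. The paper describes a large-scale process with GS115 throughout, whereas the label of B_10 names a bench-scale batch, the strain number climbs through the methanol labels and the extraction text of the labels speaks of animal tissue. Each value is an average over the culture, in which fewer cells that express a gene and less RNA per cell cannot be told apart. Between 23452894 and 42621773 fragments per library were recovered for the annotated genes. As a check of the phase labels, *AOX1* (alcohol oxidase, the first enzyme of methanol use) reached 11.3 FPKM in B_10, 38.2 FPKM in G_3, 928 FPKM in GM_2 and between 18912.5 and 33180 FPKM during methanol induction.

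Relative measurements of transcripts, such as quantitative PCR, divide each target by a reference transcript that is assumed to be constant. Genes of glycolysis are a customary choice in yeasts, because their transcripts are abundant and the promoter of glyceraldehyde-3-phosphate dehydrogenase is a standard constitutive promoter of *P. pastoris*. A change of carbon source from glycerol to methanol reroutes central carbon metabolism through the peroxisome, and it is the transition that all phases of this process span. The tables used here pair the steady genes with identifiers, lengths and gene order but with no function. They are therefore given by identifier, and no role is assigned to them.

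Of the 2763 annotated genes with a mean of at least 50 FPKM, 235 (8.51%) met the limit on the range. Hog1 (PAS_chr1-3_0232), the MAP kinase of osmotic adaptation, and Cdc48 (PAS_FragD_0026), an ATPase that extracts ubiquitinated proteins, were the 2 that belong to the study's lists and were left out. The steady genes had a median range of 0.42, against 1.25 in the other 2530 genes above the floor, a difference that the rule itself makes. At the limit, PAS_chr3_0838 was just inside with a range of 0.4986 and PAS_chr3_1182 was just outside with 0.500025. PAS_c131_0001 (0.4971) and PAS_chr2-2_0440 (0.4968) were also close inside, and PAS_chr4_0865 (0.5009) and PAS_chr3_0525 (0.5018) close outside. At the floor of 50 FPKM, PAS_chr2-1_0295 was included with a mean of 50.2 FPKM and PAS_chr3_0079, whose range was 0.44, was not, with 49.996 FPKM.

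**Figure D1:**
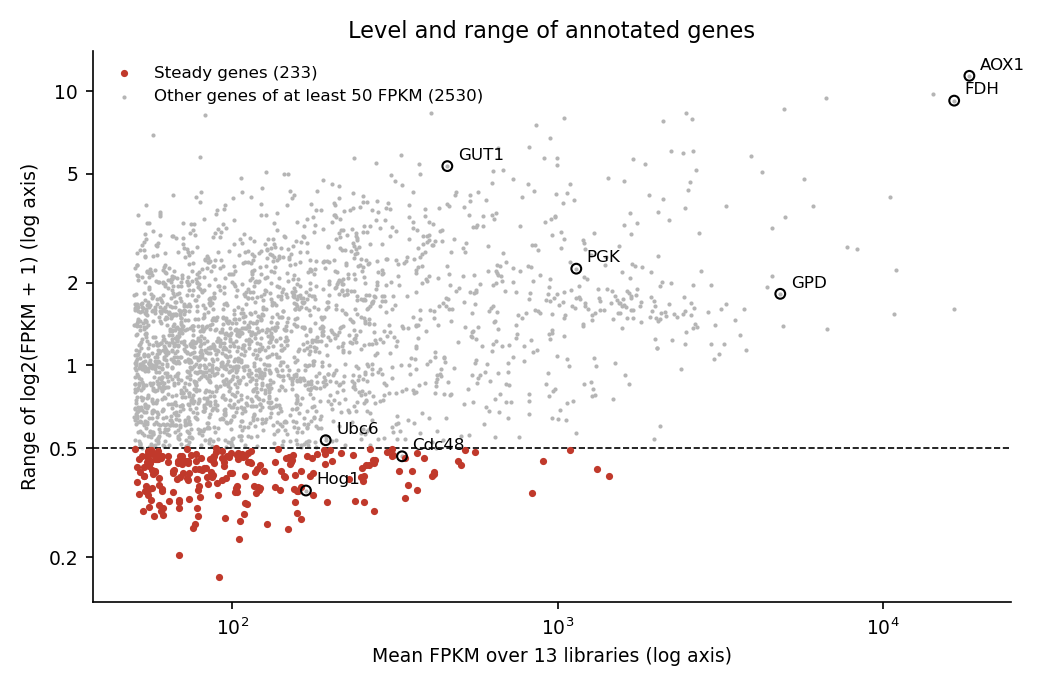
Mean FPKM over the 13 libraries (x axis, log scale) against the range of log2(FPKM + 1) (y axis, log scale) for the 2763 annotated genes of at least 50 FPKM, with the 233 steady genes in red, the others in grey and the limit of 0.5 as a dashed line. Open circles mark named genes that are not members, of which Hog1 at 0.35 and Cdc48 at 0.47 lie under the line, Ubc6 at 0.53 just above it and *AOX1* at 11.39 at the top.

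The steady genes were mostly transcripts of moderate abundance. Their mean level ran from 50.2 to 1441 FPKM, with a median of 93.3 FPKM against 119 FPKM in the other genes above the floor. The floor of 50 FPKM sets the lower end. Under 100 FPKM there were 126 members. They were 69 of the 633 genes of 50 to 70 FPKM (10.9%) and 57 of the 547 of 70 to 100 FPKM (10.4%). Of the 1942 genes between 50 and 200 FPKM, 192 (9.89%) were steady, against 8 of the 366 genes (2.19%) of at least 500 FPKM. None of the 20 genes of largest mean FPKM was a member. In summed FPKM the steady genes made up between 3.25 and 3.75% of each library. Their median gene length was 1104 bp, against 1032 bp for the other genes above the floor. They came from all 4 chromosomes, with 57, 77, 50 and 49 members on chromosomes 1, 2, 3 and 4. These were 6.88, 10.5, 7.68 and 8.89% of the 828, 733, 651 and 551 genes above the floor there.

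PAS_chr2-2_0357 had the smallest range of all, 0.17. Its level was 93.4 FPKM in B_10, 87.9 FPKM in G_3, 84.7 FPKM in GM_2 and 86.0 to 95.3 FPKM in methanol induction, with a median of 91.6 FPKM. The 3 early phases thus lay within or just under the span of the methanol libraries. PAS_chr3_0549 followed with a range of 0.20 and had 66.9, 67.5 and 63.0 FPKM in B_10, G_3 and GM_2 and 63.2 to 72.7 FPKM (median 69.5 FPKM) in methanol induction. PAS_chr3_1132 came next with a range of 0.23, with 109 FPKM in B_10, 112 FPKM in G_3, 99.5 FPKM in GM_2 and 95.04 to 111 FPKM (median 105 FPKM) in methanol induction. Its lowest library was M_12 and its highest G_3.

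The next 7 genes had ranges of 0.25 to 0.28. PAS_chr3_0856, PAS_chr3_0214 and PAS_chr3_1083 were the more abundant of them, with means of 148, 128 and 163 FPKM. PAS_FragD_0003 had 72.0 to 84.3 FPKM in the 10 methanol libraries, all above the 70.4 FPKM of B_10. PAS_chr2-2_0425 had 99.9 to 115 FPKM in the methanol libraries, likewise all above B_10 with 94.97 FPKM. This gene overlaps another in the reference table, and reads of overlapping genes may not be told apart. PAS_chr3_0214 was in the opposite order, with 115 to 136 FPKM in methanol induction, all under the 138 FPKM of B_10. PAS_chr4_0441 and PAS_chr4_0349, at means of 76.7 and 94.98 FPKM, were both highest in M_120.

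**Figure D2:**
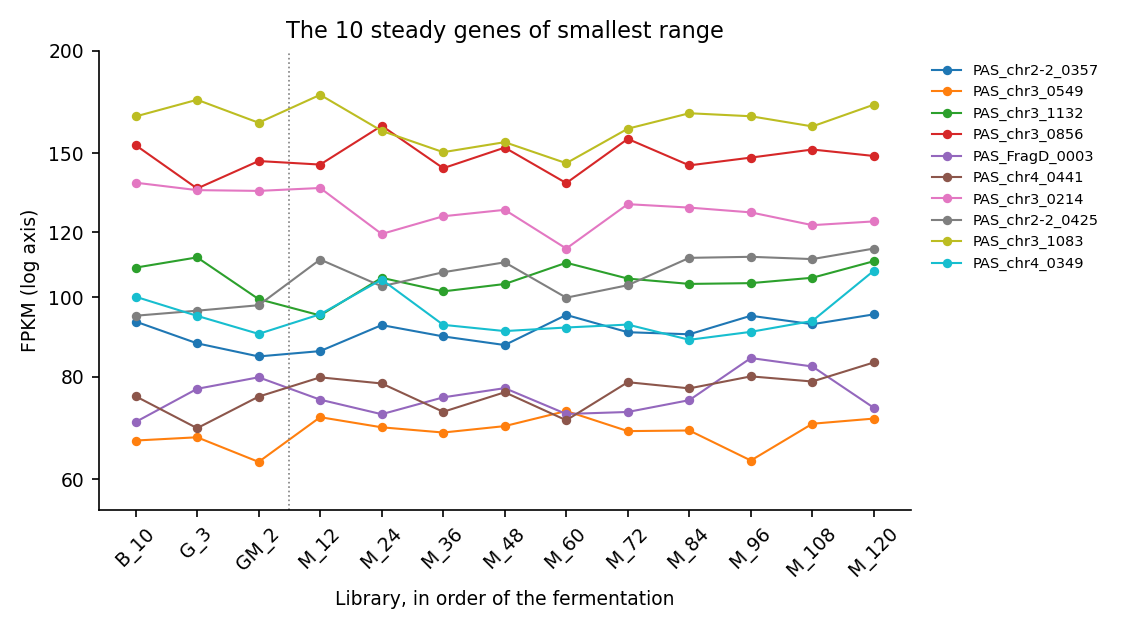
FPKM (y axis, log scale) in the 13 libraries in order of the fermentation (x axis) for the 10 steady genes of smallest range, 1 line a gene, with a dotted line before the methanol libraries. The lines run between 63.0 and 177 FPKM and PAS_chr2-2_0357 moves least, between 84.7 and 95.3 FPKM.

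At the top of the abundance scale, 3 steady genes exceeded 1000 FPKM. PAS_chr3_0615 had 1456 FPKM in B_10, 1710 FPKM in G_3, 1429 FPKM in GM_2 and 1299 to 1625 FPKM in methanol induction (median 1404 FPKM). Its glycerol-feed library was the highest, and B_10 and GM_2 lay inside the methanol span. PAS_chr1-1_0315 had 1246, 1192 and 1594 FPKM in B_10, G_3 and GM_2 and 1212 to 1586 FPKM (median 1276 FPKM) in methanol induction. PAS_chr2-1_0812 had 973 to 1164 FPKM in methanol induction, all below its highest library, B_10, with 1322 FPKM. PAS_chr2-2_0087 had the same order, with 809 to 928 FPKM in methanol induction and 1105 FPKM in B_10. PAS_chr3_0907 was flatter, with 824, 827 and 828 FPKM in B_10, G_3 and GM_2 and 719 to 911 FPKM in methanol induction. The range of PAS_chr3_0907 was 0.34, the smallest of the 8 members of at least 500 FPKM. The other members among the 10 most abundant were PAS_chr4_0754, PAS_chr3_0137, PAS_chr1-4_0238, PAS_chr3_1135 and PAS_chr2-2_0366, with means of 558, 518, 503, 495 and 418 FPKM.

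For 196 of the 233 members the FPKM gave whole fragments in all libraries, within 0.05 fragments, and a member had between 340 and 31968 fragments in a library with a median of 3555. Counting error alone then corresponds to an SD of 0.024 on the log2 scale (median over these members, highest 0.066). The SD over the 13 libraries had a median of 0.12 over all members, and in each of the 196 it was larger than the counting SD, by 1.76 to 13.5 times. The remaining movement was thus above counting error, but differences between sampling times and between library preparations cannot be told apart with 1 library a time point.

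The first 3 libraries and the ends of the induction set most of the extremes. The highest level of a member fell in B_10 for 59 members, in M_120 for 42 and in M_12 for 34. The lowest fell in GM_2 for 46 members and in M_60 for 41. For 185 of the 233 members at least 1 extreme was in B_10, G_3 or GM_2, and for 48 both extremes were in methanol libraries. Extremes were not counted in the other genes above the floor, so these counts are not read as a trait of the members. Within methanol induction alone the median range was 0.32. In the median member, B_10 lay 0.061 above and M_60 0.059 below the mean of the gene, and the mean over all members spanned 0.11 between libraries. M_36 was the library in which the members varied least about their own means, with an SD of 0.068 against 0.17 in B_10. The other 2530 genes above the floor had the same order, with the smallest SD in M_36 (0.26) and the largest in B_10 (1.08), G_3 (0.88) and GM_2 (0.79). Most libraries are of methanol induction, so the mean of a gene lies near them by construction.

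**Figure D3:**
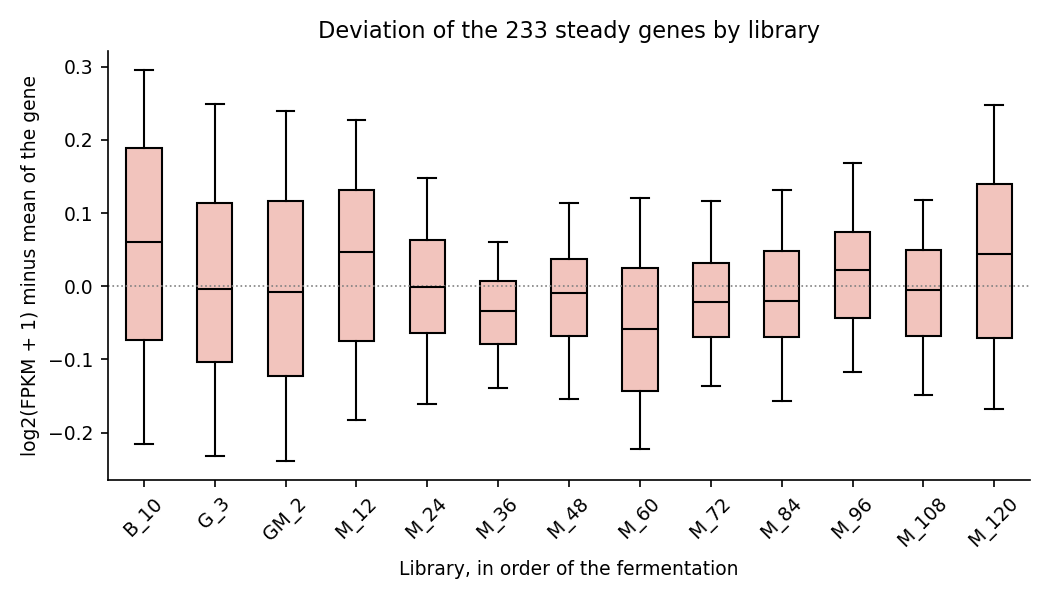
Deviation of log2(FPKM + 1) from the mean of each gene (y axis) for the 233 steady genes in each library (x axis); boxes give the quartiles with the median as a line, whiskers the percentiles 5 and 95. Boxes are widest in B_10 and narrowest in M_36, and the medians run from −0.059 in M_60 to 0.061 in B_10.

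Compared with the yeast cell culture, a member was called when its methanol median differed by 0.25 or more in log2 units and all 10 methanol libraries lay on the same side of it. By this rule 44 members were lower and 13 higher in methanol induction, against 34.9% lower and 35.3% higher among the 5100 genes with a mean of at least 1 FPKM. The members' values were bounded beforehand in this same contrast, so nothing is read from the lower shares. Without a size threshold, all 10 methanol libraries lay below B_10 in 74 members and above it in 33, against 38.1 and 38.2% of the 5100 genes. Of the 44 lower members, 40 were below B_10 in G_3 and 43 in GM_2, and of the 13 higher members, 10 were above it in G_3 and 11 in GM_2. Among the 176 members called in neither direction, 101 were below B_10 in G_3 and 97 in GM_2. All these differences share B_10, by which the 44 and the 13 were picked, so a B_10 value that is high or low by itself gives the same counts.

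PAS_chr4_0322 lay furthest below the yeast cell culture. It had 79.8 to 106 FPKM in methanol induction (median 83.8 FPKM), 89.8 FPKM in GM_2 and 96.4 FPKM in G_3, against 112 FPKM in B_10, a log2 difference of −0.41. PAS_chr1-4_0049 had 244 to 306 FPKM in methanol induction (median 253 FPKM) against 335 FPKM in B_10, a difference of −0.41. PAS_chr3_0101, PAS_chr1-4_0644 and PAS_chr4_0798 followed with −0.40, −0.38 and −0.38. In all 5 genes B_10 was the highest library, and none of the 10 methanol libraries reached it. These differences changed with the scaling of the libraries, described further on. With equal sums outside the 20 largest genes they shrank to between −0.17 and −0.098 and none was called. With equal sums over all identifiers (TPM) they were −0.34 to −0.28, and with equal upper quartiles they were −0.52 to −0.48.

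PAS_chr1-4_0430 lay furthest above the yeast cell culture, with 48.9 to 57.5 FPKM in methanol induction (median 55.3 FPKM), 56.6 FPKM in GM_2 and 48.2 FPKM in G_3, against 41.4 FPKM in B_10, a difference of 0.41. PAS_chr2-1_0800 had 53.7 to 59.1 FPKM in methanol induction and 59.0 FPKM in GM_2, but 43.2 FPKM in G_3 and 43.1 FPKM in B_10. Its step thus lay between the glycerol feed and the glycerol-methanol feed, and the 2 glycerol libraries did not overlap with the rest. PAS_chr1-3_0126 showed the same step, with 94.3 to 107 FPKM in methanol induction and 102 FPKM in GM_2 against 80.2 FPKM in G_3 and 81.2 FPKM in B_10. PAS_chr2-2_0440 and PAS_c131_0001 differed by 0.39 and 0.33, and each had its lowest library in B_10. Under the same other scaling the differences of these 5 genes were 0.56 to 0.64, and with equal upper quartiles 0.18 to 0.31, where PAS_chr1-3_0126 (0.20) and PAS_c131_0001 (0.18) were no longer called.

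In GM_2 alone, 51 members were lower and 25 higher than in B_10 by at least 0.25, against 31.2 and 35.6% of the 5100 genes. In G_3, 32 were lower and 5 higher, against 22.8 and 22.5%. With G_3 in place of B_10 as the base of the methanol comparison, 21 members were lower and 17 higher, against 32.2 and 31.7%. The rule bounded all these contrasts beforehand, and they were not recounted under the other scalings described further on. No direction is therefore read from them.

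Within methanol induction the 5 libraries from M_72 on were set beside the 5 up to M_60. In 7 members every late library exceeded every early one, and in 2 the reverse held, against 4.08 and 2.45% of the 5100 genes. PAS_chr4_0754 differed most, with 558 to 682 FPKM in the late and 487 to 534 FPKM in the early libraries, a mean log2 difference of 0.26. PAS_chr1-1_0066 had 77.7 to 84.0 FPKM late and 61.7 to 75.1 FPKM early (0.25). PAS_chr4_0668 had 197.0 to 237 FPKM late and 168 to 196.5 FPKM early (0.21). The 4 further genes of this kind, PAS_chr4_0165, PAS_chr2-1_0695, PAS_chr2-1_0122 and PAS_chr4_0436, differed by 0.097 to 0.17. PAS_chr1-4_0195 differed most in the other direction, with 50.003 to 54.3 FPKM late and 59.1 to 63.0 FPKM early (−0.24), and PAS_chr2-2_0462 had 277 to 295 FPKM late and 309 to 336 FPKM early (−0.16). Among the other large differences, PAS_chr1-4_0238 (0.20), PAS_chr4_0965 (0.21), PAS_chr3_1098 (−0.18), PAS_chr3_0394 (−0.18) and PAS_chr2-1_0505 (−0.18) had overlapping late and early values. Without M_12 among the early libraries, 14 members were higher and 3 lower without overlap, against 7.75 and 5.39% of the 5100 genes. The line fitted over the hours was higher by more than 0.25 at 120 h than at 12 h in 12 members and lower by more than that in 7, against 20.2 and 16.1% of the 5100 genes. Over all members this change ran from −0.31 to 0.41 with a median of 0.027.

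**Figure D4:**
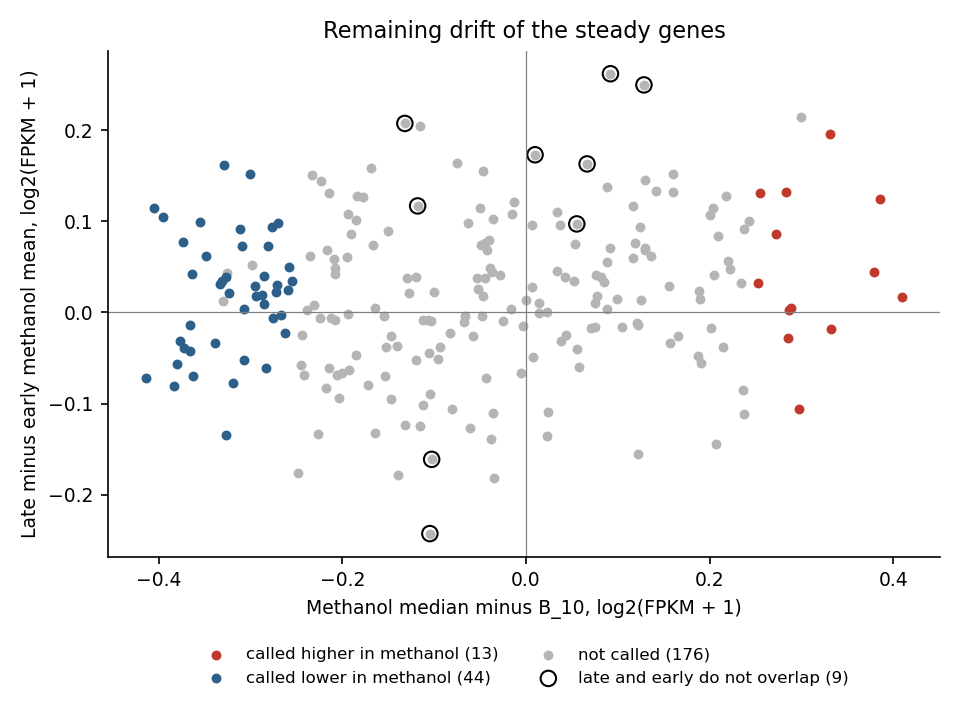
Methanol median minus B_10 (x axis) against the mean of the 5 late minus the mean of the 5 early methanol libraries (y axis), both in log2(FPKM + 1), for the 233 steady genes. Colours give the calls against B_10 (13 higher, 44 lower) and rings mark the 9 genes whose late and early values do not overlap, which lie at −0.24 to 0.26 on the y axis.

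Which genes counted as steady, and in which direction they drifted, depended on how the libraries were scaled. The 20 genes of largest FPKM took 17.3 to 21.4% of the summed FPKM in the methanol libraries and 8.06% in B_10, and the part of this share in the drift of the members was not tested. Rescaled to an equal sum (TPM), 176 genes met the rule, of which 140 were among the 233 (60.1% of the deposited set and 79.5% of the new one). With equal sums outside those 20 genes, 186 genes met it, with 114 shared (48.9 and 61.3%), and with equal upper quartiles 184, with 148 shared (63.5 and 80.4%). The drift calls of the 233 members against B_10 became 15 lower and 26 higher, 0 lower and 84 higher, and 86 lower and 3 higher under these 3 scalings. The split of late against early libraries, 7 higher and 2 lower as deposited, became 1 higher and 4 lower, 1 higher and 3 lower, and 3 higher and 2 lower. The median of all 5100 genes moved as well, from −0.011 as deposited to 0.066, 0.24 and −0.12. Relative to it the median member lay at −0.056 as deposited and at −0.074, −0.059 and −0.064 under the others. These 4 values are close by construction, since a scaling moves all genes of a library alike. The direction of a small drift thus changed with the scaling.

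**Figure D5:**
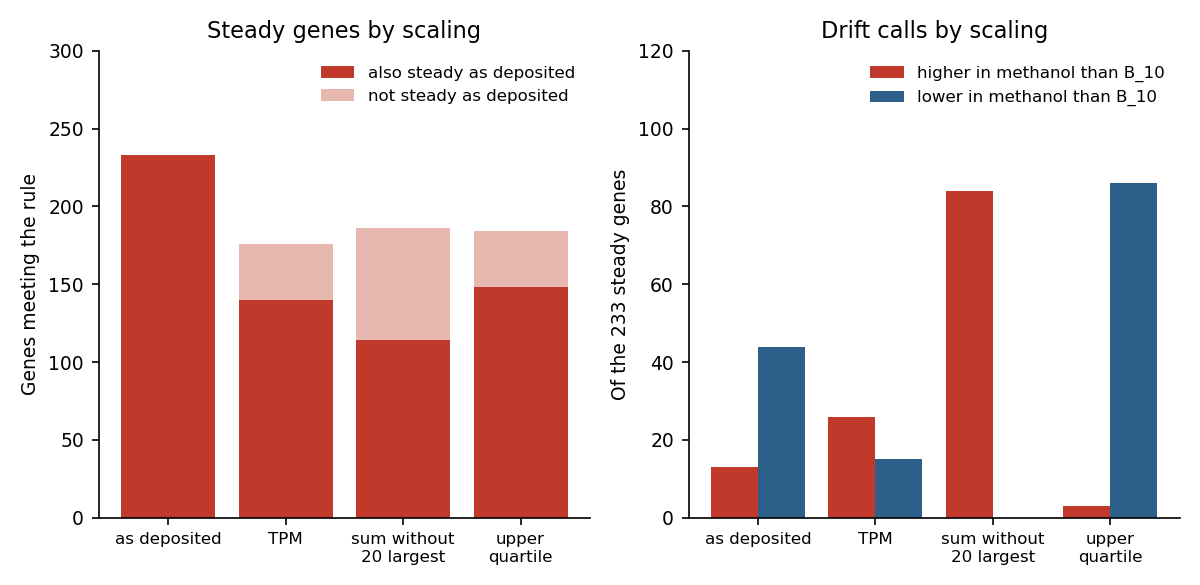
Left, number of genes that meet the rule under each scaling (y axis), split into those that are and are not steady in the deposited values (233, 140, 114 and 148 are). Right, number of the 233 steady genes called higher (13, 26, 84 and 3) or lower (44, 15, 0 and 86) in methanol induction than in B_10 under each scaling.

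A total of 54 genes met the rule under all 4 scalings, a set added after the data had been seen. They covered means of 51.8 to 1441 FPKM, and 9 of the 10 genes of smallest range were among them, with PAS_chr2-2_0425 as the exception. At 50 to 70 FPKM, PAS_chr2-1_0677 had the smallest worst range of the 4 scalings, 0.36, with 59.4, 57.2 and 51.1 FPKM in B_10, G_3 and GM_2 and 48.2 to 57.0 FPKM in methanol induction. At 70 to 100 FPKM it was PAS_chr2-2_0357 (0.27) and at 100 to 200 FPKM PAS_chr3_1132 (0.27), both described above. At 200 to 500 FPKM PAS_chr2-2_0328, with a mean of 228 FPKM, reached 0.39, as did PAS_chr3_0907 at higher levels. PAS_chr3_0615 (0.47), PAS_chr3_1135 (0.48) and PAS_chr2-2_0366 (0.41) were further abundant genes of this set. PAS_chr1-1_0315, PAS_chr2-1_0812, PAS_chr2-2_0087, PAS_chr4_0754, PAS_chr3_0137 and PAS_chr1-4_0238, though among the 10 most abundant members, were not in it. PAS_chr1-1_0315 reached a range of 0.52 with equal sums outside the 20 largest genes. PAS_chr2-1_0812 and PAS_chr2-2_0087 reached 0.57 and 0.55 with equal upper quartiles.

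The ratio of 2 genes in the same library is almost free of the scaling. Over the 27028 pairs of steady genes, the SD of the log2 ratio over the 13 libraries had a median of 0.16 and ran from 0.042 to 0.32. Averaged over all partners, PAS_chr3_1083 and PAS_chr2-2_0357 had the smallest SD, 0.13 each, followed by PAS_chr4_0441, PAS_chr3_0214 and PAS_chr3_0856. PAS_chr4_0889, with a mean of 254 FPKM, also ranked among the 10 smallest, and 8 of these 10 were among the 10 of smallest range. The tightest single pair was PAS_chr4_0889 with PAS_chr2-2_0378, whose ratio spanned 0.14 on the log2 scale over the fermentation. PAS_chr2-2_0172 with PAS_chr3_1123 spanned 0.15. These pairs were picked as the smallest of all 27028 after their values were seen.

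Of the 237 neighbouring pairs of a member with a gene above the floor, 18 joined a member to another member, and these involve 34 members. Whether this is more than unrelated positions would give was not tested. PAS_chr1-1_0223 and PAS_chr1-1_0224 had the least variable ratio of these pairs, with an SD of 0.093. PAS_chr2-2_0441, PAS_chr2-2_0440 and PAS_chr2-2_0439 formed a run, as did PAS_chr3_1123, PAS_chr3_1124 and PAS_chr3_1126. The median SD of the neighbouring pairs was 0.15, and 35.3% of all pairs of members had a smaller one. Of the first run, PAS_chr2-2_0441 and PAS_chr2-2_0440 overlap each other in the reference table.

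Both glycolytic genes in customary use as references spanned more than any steady gene. So did most genes above the floor, of which 8.51% met the limit. Over all 2763 of these genes the range had a median of 1.18 and an upper quartile of 1.79. GPD (PAS_chr2-1_0437) is the glyceraldehyde-3-phosphate dehydrogenase, under the symbol of the study's gene lists, and not the glycerophosphate dehydrogenase that shares the abbreviation. It had 3057 to 4451 FPKM in methanol induction, 5615 FPKM in GM_2 and 8813 FPKM in G_3, against 10838 FPKM in B_10, and its range was 1.83. PGK (PAS_chr1-4_0292), the phosphoglycerate kinase, had a range of 2.25. Ubc6 (PAS_chr1-1_0437), a ubiquitin-conjugating enzyme of the endoplasmic reticulum, narrowly missed the limit at 0.53, with 171 to 239 FPKM in methanol induction and 165 FPKM in B_10. Hog1 had 154 to 196 FPKM in methanol induction, 154 FPKM in GM_2, 187 FPKM in G_3 and 174 FPKM in B_10. Cdc48 had 321 to 375 FPKM in methanol induction, above its 271 to 285 FPKM in all 3 earlier phases.

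Dividing by a reference shifts the fold change of a target by the change of the reference itself. Against B_10, the median log2 change of *AOX1* in methanol induction was 10.91 in the deposited values and 10.95 when divided by the mean of the 10 steady genes of smallest mean ratio SD, but 12.47 when divided by GPD. For FDH, the formate dehydrogenase of methanol oxidation, the same 3 values were 8.76, 8.80 and 10.29. For GUT1, the glycerol kinase, they were −4.53, −4.50 and −2.93. Hog1 itself read −0.089, −0.039 and 1.45. The mean of those 10 genes spanned 0.11 on the log2 scale over the 13 libraries, between M_60 and M_120. The first and second value of each gene are close by construction, since the 10 genes were chosen for being flat in the deposited values. The third value differs by the change of GPD itself, −1.52 in the deposited values, which is taken from every target nearly alike. The same shift therefore appears in each gene listed, and it gives no separate evidence on the 10 genes.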

How the data were processed

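RNA of 13 samples of a phytase fermentation was sequenced as paired-end reads. The authors aligned the reads with Hisat2 2.0.5 to the NCBI genome of GS115 and deposited FPKM per gene, whose sum differs between libraries (941715 to 1136812 over all identifiers). Counting tool and genome build: not given in the sources used here. No coordinates are printed. All 5040 annotated genes matched the RefSeq table of GS115 (assembly ASM2700v1) by locus tag. That table gives lengths and gene order but no descriptions, so the planned lists of functions were not applied, and of the customary reference genes only GPD, PGK and Ubc6 could be matched.

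Values were analysed as log2(FPKM + 1). Fragments were recovered from the step between low FPKM values times gene length: in each library 96.4 to 97.4% of the low values checked were whole within 0.01 fragments. Each phase before methanol has 1 library, and the rule used all libraries, so no difference between phases was tested and no p-value is given. Only Dixon's criterion for a far value was applied, to the methanol libraries of the named genes. Calls were made by size (0.25 against B_10, or no overlap between late and early libraries) and read beside the share of all 5100 genes with a mean of at least 1 FPKM. The members, rules and lists were chosen with earlier results of these data known. The text names the 10 members of smallest range, largest mean FPKM and smallest mean ratio SD, the 5 most extreme in each direction of drift, the 3 on each side of the limit, the customary reference genes, and *AOX1*, FDH and GUT1. Some other members were named after their values were seen, as the tightest pairs, neighbours, the genes at the floor and the genes steady under all 4 scalings. Alternatives changed the pseudocount, floor, limit, libraries, base library and scaling. The code of the rule was run on simulated data with less noise than the members showed and with a lower floor. This checks the code only and gives no support for the steady genes. Python 3.11.15, numpy 2.4.6, pandas 2.3.3 and matplotlib 3.10.9 were used.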

Additional observations from a re-analysis of the deposited data

Results flagged for a closer look

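Among the 49 named genes checked (41 members and 8 others), 5 had a methanol library that stood apart from the other 9. The gap was large against the whole range of the 10 libraries (Dixon's critical value at 95%). In groups of independent values, chance alone passes it in about 1 of 20. The 10 libraries are serial samples and the members were picked by their range in them. That rate may therefore not hold here, and nothing is read from the number of genes flagged. The steady gene PAS_chr4_0322 was high in M_12 with 106 FPKM, at a gap of 0.723 of its range, and PAS_chr2-2_0366 was high in M_120 with 496 FPKM, at 0.542. PAS_chr3_0549 was low in M_96 with 63.2 FPKM, at 0.565, although its range over all 13 libraries was the second smallest of the members. PAS_chr1-3_0126 was low in M_84 with 94.3 FPKM, at 0.490. PGK, which is not a member, was low in M_12 with 598 FPKM, at 0.572.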

How the results depend on the processing

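The number of steady genes was 233. It was 229 and 268 with pseudocounts of 0.1 and 5, 235 with the genes of the study's lists kept, and 176, 186 and 184 under the 3 other scalings. It moved further with the floor (539 at 10 FPKM, 546 with none, 107 at 100 FPKM), with the limit (95 at 0.4, 398 at 0.6) and with the methanol libraries alone (1263), and 54 were steady under all 4 scalings. Leaving out 1 library gave 235 to 362 genes, with the largest gains without GM_2 (362) and B_10 (342). A range over fewer libraries can only stay or narrow. Apart from genes at the floor, the rises here and to 1263 therefore follow from the rule. Of the 233 members, 57 differed from the yeast cell culture as deposited. Called anew over all members, 41 did with TPM and 84 with the sum without the 20 largest genes, in both cases mostly higher, and 89 with the upper quartile, 95 at a threshold of 0.15 and 38 with G_3 as base. Likewise 9 members drifted within methanol induction as deposited, and called anew, 5 did with TPM and 4 with the sum without the 20 largest genes, mostly lower, 5 with the upper quartile, and 17 without M_12. The cause of these changes was not tested. The median range of the members, 0.42, was 0.47 with TPM, 0.51 with the sum without the 20 largest genes and 0.46 with the upper quartile. The median SD of ratios stayed at 0.16. Of the 41 named members, 20, 18 and 14 exceeded the limit under these 3 scalings. No paired analysis was possible because each phase before methanol has 1 library, the numbers of the methanol libraries only name them, and no comparison comes from a test. The function lists were not run. With 1 fermentation, steadiness in another culture was not measured.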

Other observations

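Outside the annotation, 1 of the 11 transcripts of at least 50 FPKM that the authors added to the annotation met the same limits. It lies on chromosome 4, is 3559 bp long and had 87.0 to 119 FPKM over the 13 libraries, with a range of 0.44. Of the other identifiers without a locus tag, 13 reached 50 FPKM and none of them met the limit.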
